A study of Rattus norvegicus with 10 samples.

Results

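miR-125a-5p, miR-125b-5p, miR-99a, miR-99b and miR-100 were measured in the medial prefrontal cortex (mPFC) of 5 saline-treated rats and 5 chronic morphine-treated rats, with 1 array per rat. They are members of the miR-125 and miR-99/miR-100 families and were found by their names on the array (rno-miR-125a-5p, rno-miR-125b-5p, rno-miR-99a, rno-miR-99b and rno-miR-100), with 1 probe each among 679 rat miRNA probes. All rats were wild-type Sprague Dawley animals aged 2 months, and the tissue was bulk mPFC. Rats of the chronic morphine group were injected intraperitoneally 2 times per day for 5 days, at 10, 20, 30, 40 and 40 mg/kg per injection on days 1 to 5. Rats of the saline group received saline on the same schedule, so that injection and handling were shared by both groups, and the doses were given by the experimenter. The RNA of each rat was read on a miRCURY LNA Array in 1 color. Its probes contain locked nucleic acid, ribose-bridged nucleotides that bind short RNAs tightly. The study used the arrays to look for miRNAs that change with chronic morphine in the mPFC.

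miR-125 is the vertebrate relative of lin-4 of Caenorhabditis elegans, the first miRNA described, and represses mRNAs whose 3′ untranslated regions pair with its seed, the bases near the 5′ end of the miRNA. In mouse hippocampal neurons miR-125b acts with the fragile X protein on the mRNA of the NMDA receptor subunit NR2A, and miR-125a represses the postsynaptic scaffold PSD-95. miR-99 and miR-100 form a separate, very old animal family related to miR-10, and repress mTOR and the IGF1 receptor in human cell lines. In mammals a miR-99 or miR-100 gene, a let-7 gene and a miR-125 gene lie next to each other in paralogous clusters that are kept from insects to mammals. Each cluster can be transcribed as 1 precursor, but its miRNAs are processed and decay separately.

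The mature sequences separate the 2 families by their seeds, and so show which miRNAs share pairing with targets. They were taken from RefSeq (build GRCr8), which matched 4 of the 5 miRNAs (miR-99a is named only). Each is written 5′ to 3′ with the seed, bases 2 to 8, in capitals. miR-351 is added because it carries the miR-125 seed, miR-10a-5p as the relative of miR-99 and miR-100 by descent, and let-7e as the neighbour of miR-99b and miR-125a.
miR-125a-5p: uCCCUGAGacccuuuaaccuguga
miR-125b-5p: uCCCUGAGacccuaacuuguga
miR-351: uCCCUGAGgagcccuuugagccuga
miR-99b: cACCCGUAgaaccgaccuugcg
miR-100: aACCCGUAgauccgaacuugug
miR-10a-5p: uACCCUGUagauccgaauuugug
let-7e: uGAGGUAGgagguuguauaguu
The seed CCCUGAG was carried by 3 of 693 rat mature entries, which were miR-125a-5p, miR-125b-5p and miR-351. The seed ACCCGUA was carried by 2 entries, miR-99b and miR-100. miR-99a had no entry, so this count does not show whether it carries the seed. miR-125a-5p has 24 bases and miR-125b-5p 22, and the pair share their first 13 and last 5 bases. miR-99b and miR-100 differ at 4 of 22 positions, counted from 1 at the 5′ end of miR-99b (C1A, A11U, C16A, C21U). The sequences of the capture probes were not used here, and how much signal near-identical miRNAs pass to each other's probes was not tested.

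The genes lie in 3 clusters. Mir99b, Mirlet7e and Mir125a lie on the plus strand of chr1:67350064-67350759, a span of 696 bases within the annotated span of Spaca6. The mature miR-99b, let-7e and miR-125a-5p are at chr1:67350070-67350091, chr1:67350243-67350264 and chr1:67350689-67350712. Mir100, Mirlet7a-2 and Mir125b1 lie on the plus strand of chr8:50798295-50850122, within the spans of Mir100hgl and of the long noncoding RNA Lnc215, with miR-100 at chr8:50798307-50798328. Mir99a, Mirlet7c1 and the miR-125b-5p entry at chr11:29732588-29732609 lie within chr11:29687392-29732609, and Mir99a is within the span of the long noncoding RNA LOC103693508. The span is 51828 bases on chromosome 8 and 45218 bases on chromosome 11. miR-351 lies outside the clusters, on the minus strand of chrX:137725157-137725181. miR-10a-5p is at chr10:81779730-81779752 on the plus strand.

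The arrays of the groups differed widely, and this bears on every value below. Intensities are background-subtracted spot means scaled to a common median, and 30 is the lowest intensity counted as signal. The median local background was 84 to 348 on the saline arrays and 63 to 141 on the morphine arrays, and 180 to 281 and 260 to 419 rat probes reached 30. Of 9 neuronal marker miRNAs, which include miR-124, miR-9 and miR-128, 2 reached 30 on every saline array and 7 were below 30 on all saline arrays, against 8 to 9 on the morphine arrays. Their summed intensity was 587 to 1496 in the saline group and 35400 to 117397 in the chronic morphine group. All 5 vessel wall and connective tissue markers reached 30 on every saline array and 3 to 4 on the morphine arrays, with summed intensities of 9528 to 21919 and 1435 to 5095. The 5 blood and immune cell markers summed to 28.3 to 221 and 1351 to 8373, the 2 oligodendrocyte markers to 0 and 120 to 1654, and the endothelial miR-126 to 0 and 48.6 to 4408. The 4 muscle markers summed to 77.7 to 1695 and 27.6 to 194, and the 4 epithelial markers to 96.8 to 415 and 27.6 to 727. In bulk tissue, fewer cells of a type, less RNA per cell and differences in tissue sampling, RNA quality or hybridization cannot be told apart. The part of these marker differences in the values of the miR-125, miR-99 and miR-100 families was not tested. Morphine replicates 3 and 5 were the most alike arrays (r = 0.971 across probes), and results that rest on them are given as such.

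The 5 miRNAs did not differ significantly between the groups. None passed the test in either direction (0 of 5 higher and 0 of 5 lower, limma adjusted p from 0.420 to 0.677), none reached an unadjusted p of 0.05, and the saline and morphine values overlapped for each. Among the 301 rat probes tested (those at 30 or more on at least 5 arrays), 44.2% passed at an adjusted p under 0.05, 32.6% higher and 11.6% lower in the chronic morphine group, and 29.6% had groups that did not overlap. The median log2 fold change was 0.43 over the 5 miRNAs and 0.45 over all tested probes. The largest change in size, -1.04 for miR-100, ranked at place 172 of 301, and the median size over all tested probes was 1.31. A p above the threshold does not show that levels were equal, and the intervals below state what these arrays leave possible.

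miR-125a-5p was well above the detection limit on every array. Its scaled intensities were 1934, 2765, 2734, 2694 and 6333 on saline replicates 1 to 5. On morphine replicates 1 to 5 they were 1977, 2718, 7236, 2764 and 10282. Most arrays of both groups lay between 1934 and 2765, and saline replicate 5 and morphine replicates 3 and 5 stood above them. The mean ± SD of 5 rats was 3292 ± 1735 with saline and 4995 ± 3614 with chronic morphine. The log2 fold change was 0.43 ± 0.56 (SE), a fold of 1.35 with a 95% interval of 0.586 to 3.09 (limma adjusted p = 0.571; exact permutation p = 0.365).

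miR-125b-5p, the form described with the NR2A mRNA in mouse hippocampal neurons, gave intensities of 3873, 9579, 4886, 14086 and 29726 on saline replicates 1 to 5. On morphine replicates 1 to 5 they were 12537, 13659, 22744, 5893 and 34437. The highest array was again replicate 5 of each group, but here the other arrays spread widely too, and morphine replicate 4 lay below the saline median of 9579. The mean ± SD of 5 rats was 12430 ± 10490 with saline and 17854 ± 11044 with chronic morphine. The fold was 1.60 with a 95% interval of 0.609 to 4.19 (log2 fold change 0.68, limma adjusted p = 0.439; exact permutation p = 0.325). No spot of the 5 miRNAs exceeded a foreground intensity of 38547, below the largest reading on the arrays of 65535.

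miR-99a, the partner of let-7c and miR-125b on chromosome 11, was above the detection limit on all arrays. Its intensities were 118, 160, 281, 144 and 897 on saline replicates 1 to 5. On morphine replicates 1 to 5 they were 670, 58.6, 1156, 262 and 1762. The morphine arrays held both the lowest and the highest value, a span of 30.1-fold within the group against 7.58-fold among the saline arrays. The mean ± SD of 5 rats was 320 ± 328 with saline and 782 ± 690 with chronic morphine, and the fold was 1.98 with a 95% interval of 0.532 to 7.36 (log2 fold change 0.99, limma adjusted p = 0.420; exact permutation p = 0.373). Its within-group SD of 1.62 on the log2 scale was larger than that of 89.4% of tested probes.

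In the average of its 4 spots, miR-99b, the chromosome 1 member, varied least of the 5 miRNAs from rat to rat. Its intensities were 1261, 2845, 1851, 3051 and 1294 on saline replicates 1 to 5. On morphine replicates 1 to 5 they were 2805, 2045, 1003, 1130 and 1631. The groups covered nearly the same range, and the arrays that were high for the other miRNAs were not high here. The mean was 2060 ± 847 (SD, n = 5) and 1723 ± 734 (SD, n = 5), a fold of 0.834 with a 95% interval of 0.413 to 1.68 (log2 fold change -0.26, limma adjusted p = 0.677; exact permutation p = 0.492). The within-group SD was 0.61 on the log2 scale, and 16.6% of tested probes had a smaller one. That SD is of an average over 2 parts of the array, which were over 2-fold apart on 4 of 10 arrays (below).

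miR-100, the chromosome 8 member, lay near the detection limit and had the largest spread of the 5. Its intensities were 301, 550, 177, -143 and 1236 on saline replicates 1 to 5. On morphine replicates 1 to 5 they were 82.9, -8.62, 342, 87.5 and 398. It reached 30 on 4 of 5 arrays in each group, and saline replicate 4 and morphine replicate 2 entered the test at the floor of 30. The mean ± SD of 5 rats was 424 ± 518 with saline and 180 ± 179 with chronic morphine. With 1 array of each group at the floor, the log2 fold change was -1.04 with a floor of 30 or 10 and -0.95 with a floor of 100. The fold of 0.486 had a 95% interval of 0.115 to 2.06 (limma adjusted p = 0.433; exact permutation p = 0.381). Under cyclic loess scaling the log2 fold change was -2.88 and passed the test (limma adjusted p = 0.0152), the only call among 38 other settings for miR-100. Without saline replicate 4 it was -1.83 (adjusted p = 0.0962).

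**Figure D1:**
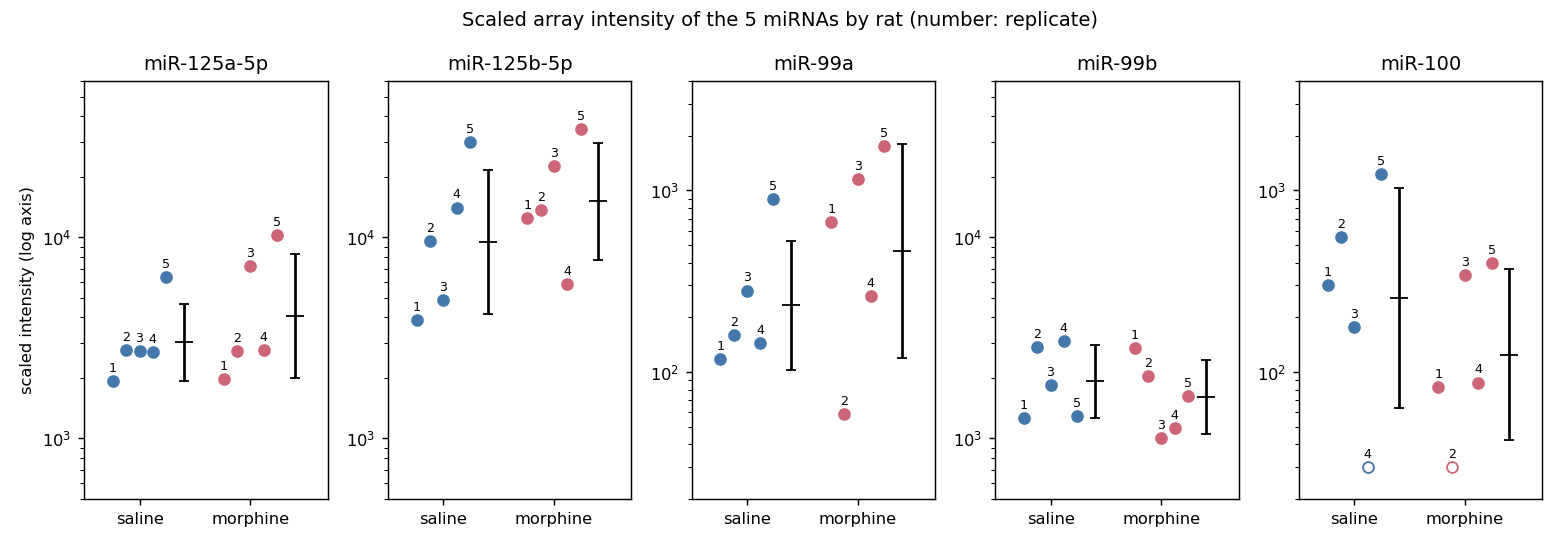
Scaled intensity (log axis) of each miRNA on the 5 saline and 5 morphine arrays, 1 panel per miRNA with its own axis. Points are arrays, bars are the mean ± SD of the log2 values, and values under 30 are drawn at 30; the groups overlap in all 5 panels, and miR-100 has 1 array at the floor in each group.

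The sign of the log2 fold change of miR-125b-5p, miR-99a, miR-99b and miR-100 changed with the processing. miR-125b-5p turned to -0.11 under quantile normalization, miR-99a to -0.11 under cyclic loess and miR-99b to 0.34 when the scaling factor was taken over all probes. Scalings also moved the median of all tested probes, from 0.45 to -0.28 under quantile normalization and 0.98 with the factor over all probes. miR-125a-5p stayed above 0 in all 39 other settings, between 0.09 and 1.04, and passed the test in none. With morphine replicates 3 and 5 averaged as 1 sample, the log2 fold changes were 0.16 for miR-125a-5p, 0.45 for miR-125b-5p, 0.58 for miR-99a, -0.18 for miR-99b and -1.43 for miR-100, with limma adjusted p from 0.312 to 0.831.

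**Figure D2:**
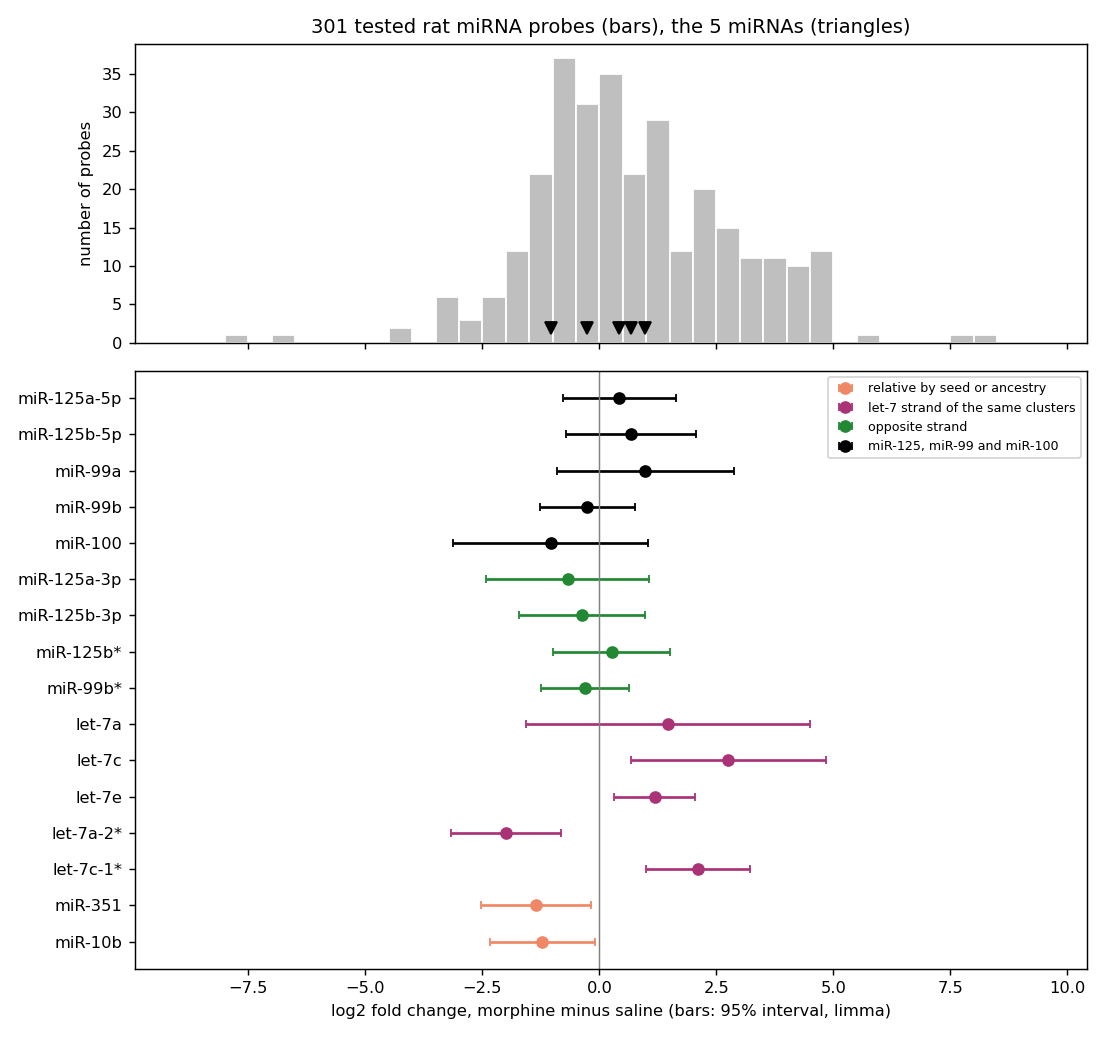
Upper panel, number of the 301 tested rat probes (bars) by log2 fold change, morphine minus saline, with the 5 miRNAs as triangles; lower panel, the log2 fold change with its unadjusted 95% interval from limma for the 5 miRNAs and those related to them by strand, cluster or seed. The intervals of the 5 miRNAs all cross 0, while let-7e (1.18), let-7c (2.75), let-7c-1* (2.11), let-7a-2* (-1.99), miR-351 (-1.36) and miR-10b (-1.22) lie to one side, the last 2 without passing after adjustment.

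Each probe was printed in 4 spots, 2 in the first and 2 in the second of the equal runs of blocks that make up the 36 blocks of the array, here called fields. For miR-125a-5p the fields gave readings within 2-fold of each other on every array, with a median of 1.26-fold between them (largest 1.54). For miR-125b-5p they did not. The median was 3.05-fold, the largest of the 96 probes that reached 30 in both fields on all 10 arrays, and 6 of 10 arrays were over 2-fold apart. Of the 96 probes, 58 had a larger median than miR-125a-5p, whose first field was the higher on 8 of 10 arrays.

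The spots of miR-125b-5p show this directly. On saline replicate 1 the first field read 7836 and 8523 and the second 377 and 245, a ratio of 26.3 between field means. On saline replicate 2 the spots read 12780 and 20305 against 1482 and 1388, on saline replicate 4 they read 18633 and 22484 against 2199 and 1943, and on morphine replicate 2 they read 30789 and 32075 against 2887 and 3956. Morphine replicate 4 ran the other way, with 3516 and 3671 in the first field and 10714 and 9787 in the second. On saline replicate 5 and morphine replicate 5 the fields were within 1.27-fold and 1.03-fold. Spots within a field never differed by more than 1.84-fold, so the disagreement lay between fields and not between neighbouring spots. The first field was higher on 8 of 10 arrays, and its cause was not tested.

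miR-99b and miR-100 also depended on the field. miR-99b was over 2-fold apart on 4 of 10 arrays, with 690 in the first field and 4530 in the second on morphine replicate 2, 1076 and 5468 on morphine replicate 1, and 3913 and 988 on saline replicate 4. On saline replicate 1 its 4 spots were -533, 3184, 1797 and 1080, and the first of these lowered the mean. miR-100 read 14.5 in the first field and 646 in the second on saline replicate 1, and 54 and 979 on saline replicate 2. miR-99a was never over 2-fold apart on the 9 arrays where both fields reached 30 (median 1.40). On the array left out, morphine replicate 2, it read 29 in the first field and 120.5 in the second. Over all tested probes, 23.4% of 2204 probe readings with both fields at 30 or more were over 2-fold apart, from 4.92% on morphine replicate 5 to 44.1% on morphine replicate 2.

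The choice of field decided the sign of 2 miRNAs. miR-99b had a log2 fold change of -1.08 in the first field (limma adjusted p = 0.0922) and 0.46 in the second (adjusted p = 0.560). miR-100 had 0.36 in the first field (adjusted p = 0.782) and -1.57 in the second (adjusted p = 0.335). miR-125b-5p had 0.43 in the first field and 1.85 in the second, and passed in neither (adjusted p = 0.680 and 0.232). miR-125a-5p gave 0.54 and 0.48, and miR-99a 0.78 and 1.26.

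**Figure D3:**
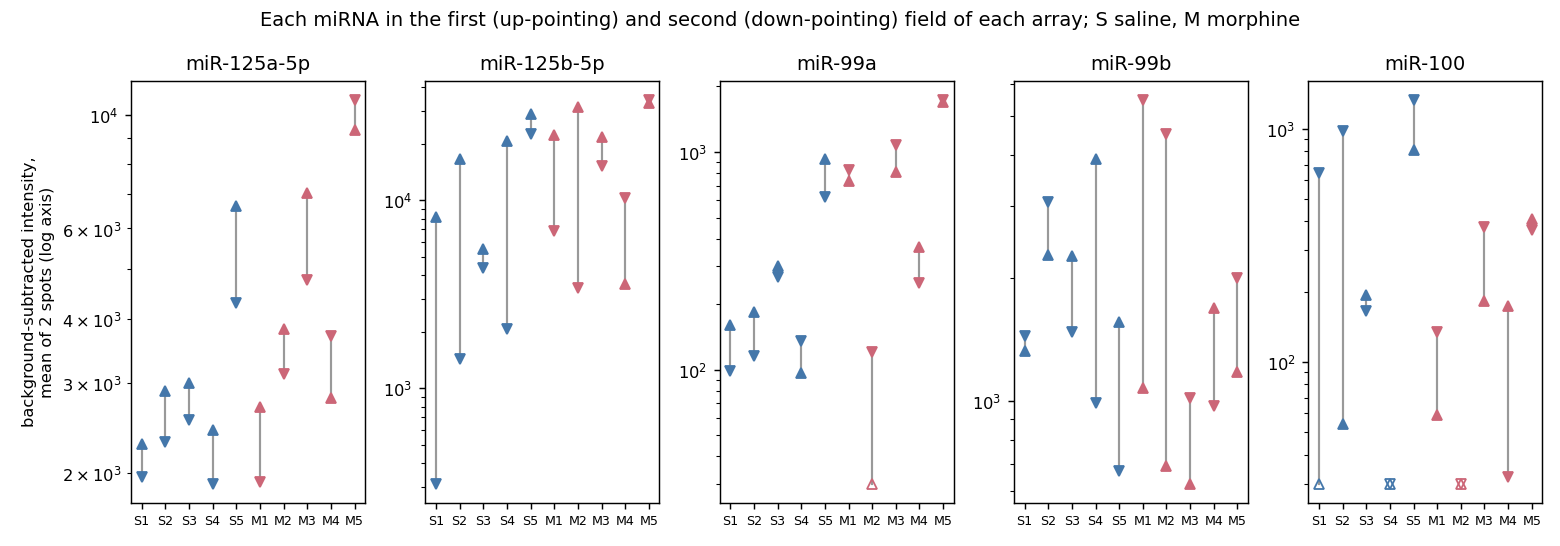
Unscaled background-subtracted intensity of each miRNA in the first field (up-pointing) and second field (down-pointing) of each array, joined by a line, with a log axis of its own in each panel and values under 30 drawn open at 30. The fields of miR-125a-5p differ by at most 1.54-fold, while miR-125b-5p spans 8180 to 311 on saline replicate 1 and miR-99b spans 690 to 4530 on morphine replicate 2.

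miR-125a-5p, miR-125b-5p, miR-99a and miR-100 were highest on the same arrays of each group. Saline replicate 5 was the highest saline array for miR-125a-5p, miR-125b-5p, miR-99a and miR-100, and morphine replicate 5 and then morphine replicate 3 were the highest morphine arrays for the same miRNAs. After each group's mean was subtracted, Pearson's r over the 10 arrays was 0.791 between miR-125a-5p and miR-125b-5p, 0.740 between miR-125a-5p and miR-99a, 0.728 between miR-99a and miR-100, 0.671 between miR-125a-5p and miR-100, 0.593 between miR-125b-5p and miR-99a, and 0.398 between miR-125b-5p and miR-100. The median over all 45150 pairs of tested probes was 0.0606, with quartiles of -0.289 and 0.411. All these values share the arrays and their scaling factors, and are given as a description.

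The r of each of these pairs was lower without the 3 arrays on which the miRNAs were highest. Choosing arrays by their high values makes such a fall likely, so it is a description and not a test. Without saline replicate 5 and morphine replicates 3 and 5, left out after their values were seen, r over the remaining 7 arrays was 0.252 between miR-125a-5p and miR-125b-5p, -0.316 between miR-125a-5p and miR-99a, 0.317 between miR-99a and miR-100, -0.267 between miR-125a-5p and miR-100, -0.155 between miR-125b-5p and miR-99a and -0.540 between miR-125b-5p and miR-100. Over the 10 arrays miR-99b did not follow the others. Its r was -0.406 with miR-125a-5p, its neighbour in the 696-base cluster, and -0.539 with miR-100, which carries the same seed. The lower quartile over all pairs of tested probes was -0.289. With miR-125b-5p its r was 0.0636 over 10 arrays and 0.922 over the 7, the highest of the member pairs there. The highest morphine values of miR-99b, on replicates 1 and 2, came mainly from the second field.

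**Figure D4:**
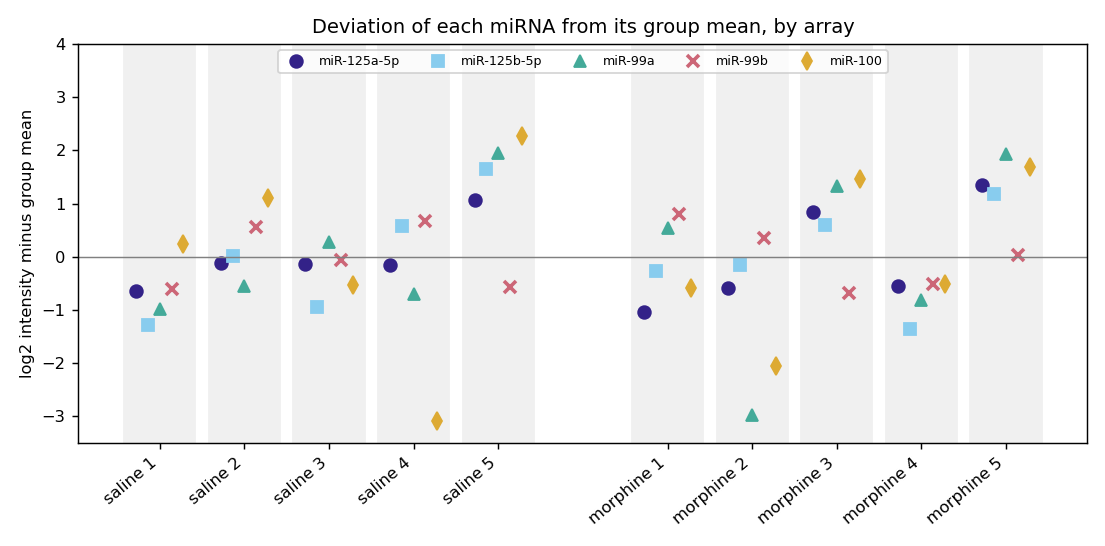
Log2 scaled intensity minus the group mean for each of the 5 miRNAs on each of the 10 arrays, with 0 as the group mean. miR-125a-5p, miR-125b-5p, miR-99a and miR-100 lie above 0 on saline replicate 5, morphine replicate 3 and morphine replicate 5, while miR-99b does not follow them.

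Among the other tested probes, the most like miR-125a-5p over the 10 group-centred arrays were miR-127 (r = 0.973), miR-9* (0.958) and miR-148b-3p (0.938). All 3 rose in the chronic morphine group, by 2.43, 2.19 and 2.44 on the log2 scale (limma adjusted p = 0.00322, 0.00549 and 0.00409), beside 0.43 for miR-125a-5p, which did not pass. The most like miR-125b-5p were miR-107 (r = 0.936), miR-103 (0.936) and miR-181a (0.924), with log2 fold changes of 0.41, 1.39 and 1.71 that did not pass the test. For miR-99a they were let-7i (0.936), miR-22 (0.933) and miR-30d (0.928). Of these miR-30d rose (log2 fold change 3.58, limma adjusted p = 0.00414), while let-7i (-0.75) and miR-22 (-1.02) did not pass. For miR-100 they were miR-143 (0.957), a smooth muscle miRNA, miR-34a (0.894) and miR-370 (0.872). Their log2 fold changes of -1.15, -1.12 and 0.99 did not pass. The closest to miR-99b were less close, with miR-375 at 0.811, miR-183* at 0.766 and miR-743b at 0.690.

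Differences between miRNAs taken within each array do not depend on the array's scaling factor where both values are above the floor. The 4 pairs with miR-100 hold 1 array per group at the floor, so their values are partly set by it. The level of a difference depends on the probes, so only its change between groups is read. None of the 10 pairs had groups that did not overlap, against 28.4% of all pairs of tested probes. For miR-99a and miR-100, members of one family from different clusters, the log2 difference, mean ± SD of 5 rats, was -0.13 ± 1.64 with saline and 1.89 ± 0.76 with chronic morphine, a shift of 2.02 that was 0.42 in the first field and 2.83 in the second. miR-125b-5p shifted by 1.72 and miR-125a-5p by 1.47 against miR-100. miR-125a-5p and miR-125b-5p, which share the seed, shifted by -0.25 against each other with a pooled SD of 0.66.

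The opposite strands of the same hairpins are usually degraded. Of 6 opposite strands, 4 were tested and none passed, with log2 fold changes of -0.68 for miR-125a-3p, -0.37 for miR-125b-3p, 0.26 for miR-125b* and -0.31 for miR-99b* (limma adjusted p from 0.537 to 0.736, median -0.34). miR-99b* reached 30 on all arrays, at 116 to 356 in the saline group and 131 to 251 in the chronic morphine group. It passed as lower in 3 of 39 other settings, quantile normalization (-1.56, limma adjusted p = 0.00359), cyclic loess (-1.83, 0.00307) and a negative-control baseline (-0.93, 0.0332), and miR-125a-3p in 1 of 38, cyclic loess (-2.33, 0.0302). miR-99a* and miR-100* were below 30 on all 10 arrays and were not tested.

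Some let-7 strands passed the test, and whether they differ from the 5 miRNAs was not tested. let-7 represses growth and cell cycle genes in animals. Of 7 let-7 strands listed (6 from the clusters and let-7c-2*, from a gene outside them), 5 were tested, 3 were higher, 1 was lower and 1 did not pass, beside 32.6% higher and 11.6% lower over all tested probes. let-7e, encoded between miR-99b and miR-125a, gave 2376, 3992, 2605, 3561 and 3526 on saline replicates 1 to 5 and 6284, 5940, 8230, 5528 and 10943 on morphine replicates 1 to 5. The groups did not overlap, and the log2 fold change was 1.18 ± 0.40 (SE, limma adjusted p = 0.0307; exact permutation p = 0.00794, the smallest 5 rats against 5 allow). Its call held in 28 of 39 other settings. It was lost with morphine replicates 3 and 5 averaged as 1 (1.08, limma adjusted p = 0.0718), and on leaving out saline replicate 1 (0.0739) or 3 (0.0613) or morphine replicate 1 (0.0721), 3 (0.10) or 5 (0.105). Within arrays, let-7e shifted by 1.44 against miR-99b and by 0.75 against miR-125a-5p, with overlapping groups in both.

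let-7c, the neighbour of miR-99a, rose by 2.75 on the log2 scale (limma adjusted p = 0.0330), with 57.1 to 1553 in the saline group and 283 to 5744 in the chronic morphine group. The groups overlapped (exact permutation p = 0.0556), and the call held in 17 of 39 other settings. It was lost with morphine replicates 3 and 5 averaged as 1 (2.52, limma adjusted p = 0.0763) and on leaving out any array but saline replicates 2 and 4 and morphine replicate 4 (0.0623 to 0.0990). let-7a-2*, whose hairpin lies between Mir100 and Mir125b1, fell by 1.99 (adjusted p = 0.0103), from 1052 to 4329 in the saline group to 270 to 984 in the chronic morphine group without overlap, and its call held in 37 of 39 other settings. let-7c-1* was higher by 2.11 (adjusted p = 0.00506) but reached 30 on only 2 of 5 saline arrays, so that its fold depends on the floor. Its call held in 31 of 38 other settings, and the log2 fold change was 0.67 with a floor of 100, 0.94 under cyclic loess, 1.04 under quantile normalization and 0.16 with normexp. let-7a gave a log2 fold change of 1.47 (adjusted p = 0.439) and reached 30 on 3 of 5 saline arrays. On saline replicates 3 and 5 let-7a read 20.5 and 13.3, where let-7a-2*, from the same hairpin, read 1529 and 4329. let-7a was also the lower of the pair on saline replicate 1 and morphine replicate 4, and the higher on the other arrays. What the let-7a-2* probe measured was not tested. let-7e* and let-7c-2* were below 30 on all arrays. let-7a and let-7c differ at 1 base (A19G, counted from the 5′ end of let-7a), as do let-7a and let-7e (U9G), and both let-7a and let-7c have a further gene outside these clusters, so their signals are uncertain. Within arrays, let-7c shifted by 2.08 against miR-125b-5p and by 1.77 against miR-99a, and let-7a-2* by -2.67 against miR-125b-5p and -0.95 against miR-100. The groups overlapped in each. Mir125b1 lies in the chromosome 8 cluster and the miR-125b-5p entry in that of chromosome 11, and 1 probe reads miR-125b-5p. Its values therefore cannot be assigned to either cluster.

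miR-351, which shares the miR-125 seed and lies on the X chromosome, was steady in the saline group, at 3830, 4231, 4641, 4664 and 3825 on replicates 1 to 5. On morphine replicates 1 to 5 it was 1290, 2252, 885, 5672 and 823. Morphine replicate 4 lay above all saline arrays and the other 4 morphine arrays lay below them. The log2 fold change was -1.36 ± 0.54 (SE), short of the threshold (limma adjusted p = 0.0581; exact permutation p = 0.0476). Without morphine replicate 4 it was -1.77 and passed (adjusted p = 0.00881). Leaving out any other array did not make it pass, and it passed in 5 of 39 other settings in all. Among the 3 miRNAs with the seed CCCUGAG the log2 fold changes were thus 0.43, 0.68 and -1.36, and within arrays miR-351 shifted by -1.79 against miR-125a-5p and by -2.04 against miR-125b-5p, with overlap in both.

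The relatives of miR-99 and miR-100 in the miR-10 family, which lies within the Hox gene clusters, were at the detection limit. miR-10b reached 30 on 4 of 5 saline arrays and 1 of 5 morphine arrays before scaling (log2 fold change -1.22, limma adjusted p = 0.0754). After scaling, all 5 morphine arrays and saline replicate 2 were at the floor of 30. Its fold and its calls are therefore partly set by the floor. With a floor of 100 the log2 fold change was -0.22 (limma adjusted p = 0.337). It passed in 12 of 32 other settings, with log2 fold changes from -2.22 to -0.22 over all 32 and a smallest adjusted p of 0.00203. miR-10a-5p reached 30 on 1 of 10 arrays and was not tested.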

How the data were processed

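The authors labeled total RNA with Hy3, scanned the miRCURY LNA Array with a GenePix scanner and deposited foreground and background-subtracted intensity for each spot, on a linear scale and without scaling between arrays.
Background-subtracted intensities were averaged over 4 spots per probe, divided by each array's median over the 120 rat probes at 30 or more on all 10 arrays, returned to intensity units with the geometric mean of these medians, set to at least 30 and log2-transformed. The factors were 807 to 1101 on saline arrays and 819 to 1281 on morphine arrays. The 301 rat probes at 30 or more (before scaling) on at least 5 arrays entered 1 fit in R 4.3.3 with limma 3.58.1 (lmFit, eBayes, two-sided, Benjamini-Hochberg). Single probes also had a two-sided exact permutation test of mean log2 values. The limma step was tested on simulated data. Mature sequences, gene positions and spans came from RefSeq.
Named were the 5 miRNAs, every member of 3 lists around them (opposite strands, let-7 neighbours, relatives) and, for each miRNA, the 3 probes with the highest group-centred r. These members and lists were chosen with earlier results of these data known. Markers were listed by cell type, and no marker of astrocytes was listed. No source used here gives the slide or scan of an array, and batches were therefore not examined. The labels do not say whether rats were littermates. The number of arrays limits the precision.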

Additional observations from a re-analysis of the deposited data

Results flagged for a closer look

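Of 31 groups of 5 arrays compared on the log2 scale with Dixon's critical value of 0.71, 4 held an array far from the rest. For values not set to the floor, chance flags 1 in 20. None of the 5 miRNAs was flagged on that scale (miR-125a-5p on saline replicate 5 had a ratio of 0.699). On linear intensities, saline replicate 5 exceeded the value for miR-125a-5p (0.811) and miR-99a (0.791). miR-125b* read 138.8 on saline replicate 3, with the other 4 saline arrays below 30. Those 4 were set to the floor, which fixed its ratio at 1, so the rate of 1 in 20 does not apply to it. let-7a read 62.4 on morphine replicate 4, against 1277 on the next lowest morphine array. let-7c read 283 on the same array, against 3653 on the next lowest, and without that array its log2 fold change was 3.57 (limma adjusted p = 0.00556). let-7a-2* read 4329 on saline replicate 5, against 1529 on the next highest saline array.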

How the results depend on the processing

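Field, negative-control, averaged-array and same-probe settings were chosen after seeing the data. Log2 fold changes changed sign for miR-125b-5p under quantile normalization (-0.11), miR-99a under cyclic loess (-0.11), miR-99b with the factor over all probes (0.34) and in the second field (0.46), and miR-100 in the first field (0.36). miR-100 passed under cyclic loess (-2.88), which made 1 of 5 miRNAs lower. With each array left out in turn the ranges were 0.09 to 0.69 for miR-125a-5p, 0.35 to 1.05 for miR-125b-5p, 0.50 to 1.77 for miR-99a, -0.52 to -0.09 for miR-99b and -1.83 to -0.51 for miR-100, and none passed. Counts of all tested probes, 98 higher and 35 lower, became 65 and 54 under quantile normalization, 55 and 57 under cyclic loess, 116 and 22 with the factor over all probes, 45 and 50 with normexp, 19 and 14 among the 120 probes at 30 on all arrays (without miR-100, which could not be fitted), 46 and 14 with a t-test on linear values, 80 and 17 in the second field and 92 and 81 over a negative-control baseline. With 1 array left out they ranged from 38 to 88 higher and 19 to 34 lower, at 39 and 19 without morphine replicate 1, 59 and 29 without 2, 38 and 23 without 3, 52 and 29 without 4 and 39 and 24 without 5. Leaving out a morphine array also left fewer probes past the filter, and with the same 301 probes kept the ranges were 75 to 103 higher and 27 to 36 lower. Shifts within arrays moved under cyclic loess for miR-125a-5p minus miR-99a (0.67), miR-125a-5p minus miR-100 (3.43) and miR-125b-5p minus miR-100 (3.60), in the first field for miR-99a minus miR-100 (0.42) and miR-99b minus miR-100 (-1.44), and in the second field for miR-125a-5p minus miR-125b-5p (-1.37) and miR-125b-5p minus miR-100 (3.42). With the replicate number as a block, the log2 fold changes of the 5 miRNAs were unchanged by construction (0.43, 0.68, 0.99, -0.26 and -1.04, limma adjusted p from 0.271 to 0.731) and the counts were 81 and 26. The block ended the calls of let-7e (adjusted p = 0.0825) and let-7c (0.0708). Samples of the same number did not deviate together (r from -0.404 to 0.0543), and 0 of 5 saline arrays correlated best with their own number.

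Intensities near 30 depend on the local background subtracted, which was higher on saline replicates 2, 4 and 5 (188 to 348) than on any morphine array (63 to 141). That limits miR-100, miR-99a on its dimmest arrays and the opposite strands. The disagreement between fields limits miR-125b-5p, miR-99b and miR-100 at any brightness.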
